A study of Homo sapiens and Homo sapiens
Mus musculus and Mus musculus with 9 samples.

Results

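Cancer cells that spread to bone can switch on genes of bone-forming cells, a behaviour called osteomimicry. Here 10 human genes of bone formation and bone remodelling (RUNX2, DLX5, SPP1, BGLAP, IBSP, SPARC, ALPL, TNFRSF11B, TNFSF11 and PTHLH) were described gene by gene, out of 41713 genes in the deposited table. They were taken by symbol, and all 10 were listed by each of 3 pipelines that sort human from mouse reads. The study sequenced mRNA from C4-2B, a human prostate cancer cell line, cultured alone (3 libraries), and from a mixed co-culture of C4-2B with MC3T3-E1, a mouse osteoblast line, seeded at 1 cancer cell to 30 osteoblasts (3 libraries). The labels give a wild-type genotype and alpha-MEM with serum for all cells, while the methods name another medium for keeping C4-2B and say that the co-cultured cancer cells carried GFP. Both are established lines, and the labels do not say whether replicates were separate cultures. The osteoblasts were also sequenced on their own (3 libraries), and that group is not analysed here.

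Bone formation is directed in osteoblasts by transcription factors such as RUNX2 and DLX5, which switch on genes of the mineralising matrix (SPP1, BGLAP, IBSP, SPARC) and the phosphatase ALPL. Osteoblasts also control bone resorption, since RANKL, the product of TNFSF11, drives osteoclast formation and osteoprotegerin, the product of TNFRSF11B, blocks it. PTHLH, which tumour cells can secrete, acts on osteoblasts and raises RANKL. In a mixed culture a read of such a gene can come from the cancer cell or from the mouse osteoblast, so the way reads are sorted bears on every value below.

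The value given for a gene is the authors' mean normalised count, the mean over 6 libraries (both conditions pooled) of the count divided by the size factor of the library. It carries no replicate spread, and no test between the conditions was possible from it. RUNX2 had the highest mean of the 10 genes, also per kb of exon, and SPARC followed. With Xenome and XenofilteR DLX5 came next and the remaining 7 genes had means below 10, whereas with Kallisto the mean of TNFRSF11B (12.1) was above that of DLX5 (11.3). Per kb of exon, the Xenome mean was 50.2 for RUNX2, 15.5 for SPARC, 12.8 for DLX5, 3.92 for BGLAP, 1.75 for IBSP and 0.331 for PTHLH. SPP1, TNFRSF11B, ALPL and TNFSF11 stood below these, between 0.0206 and 0.0901 per kb. Whether neighbours in this order differ beyond their spread could not be judged from pooled means.

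**Figure D1:**
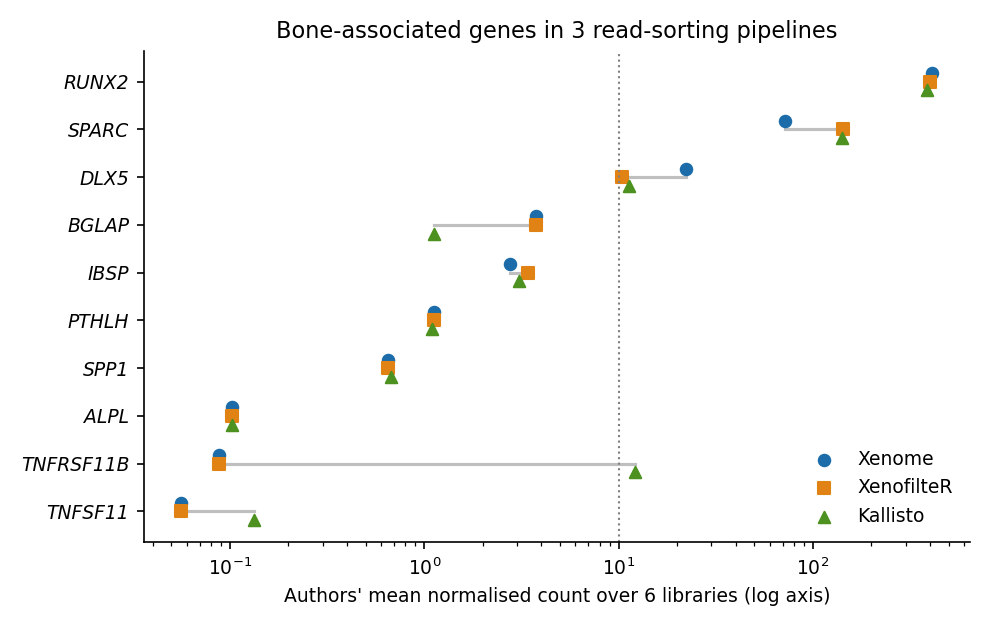
Authors' mean normalised count over 6 libraries (horizontal log axis) of each of the 10 genes with Xenome, XenofilteR and Kallisto, with a dotted line at 10. The markers of TNFRSF11B lie far apart (0.0876, 0.0875 and 12.1), those of BGLAP, TNFSF11, SPARC and DLX5 lie apart by a lesser factor, and those of RUNX2, ALPL, SPP1 and PTHLH nearly coincide.

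How far a human gene can be told from its mouse counterpart depends on their sequence. Of all distinct 31-base sequences in the annotated transcripts of a gene, DLX5 had 13.5% that also occur in mouse transcripts and RUNX2 had 8.93%, more than 99.4% and 98.2% of protein-coding genes. The median protein-coding gene had 0.502% over 19874 genes. IBSP had 1.75%, SPARC 1.51%, TNFSF11 1.04%, TNFRSF11B 0.957%, PTHLH 0.666% and ALPL 0.099%, while BGLAP and SPP1 had none. So 7 of the 10 genes lay above the median gene, and the sequenced reads were 50 bases long. The coding identity to the mouse counterpart ranged from 93.3% for RUNX2, 93% for DLX5 and 89.3% for SPARC down to 76.3% for IBSP, 71.2% for SPP1 and 68% for BGLAP.

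**Figure D2:**
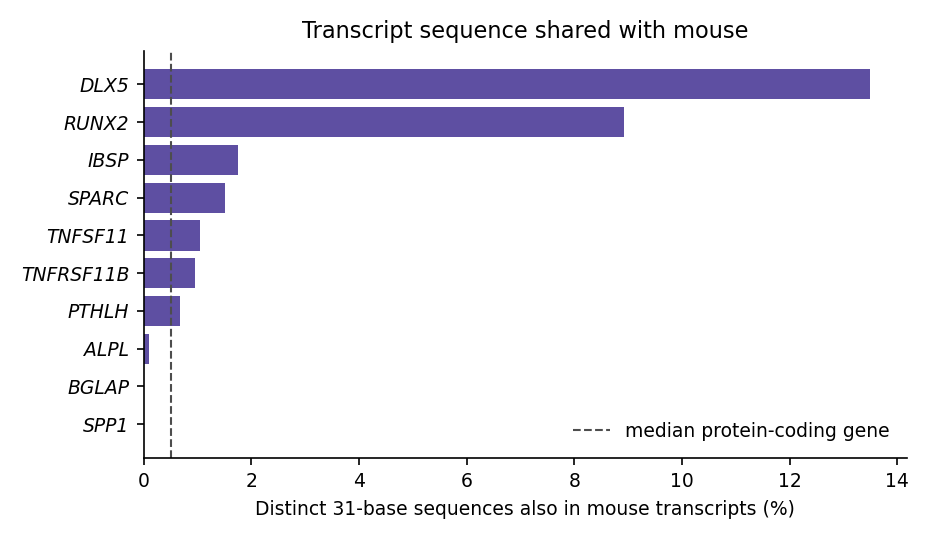
Percent of distinct 31-base sequences in the human transcripts of each gene that also occur in mouse transcripts (bars), with the median protein-coding gene at 0.502% (dashed line). DLX5 and RUNX2 stand far above the other 8 genes, and BGLAP and SPP1 are at 0.

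The sequences below show the longest coding run that each gene shares with its mouse counterpart, for 4 of the genes whose values differed between pipelines (DLX5, SPARC, IBSP and BGLAP), and for RUNX2, which had the longest run. TNFRSF11B, whose means differed most between pipelines, is not shown here. Capitals mark the identical run, and up to 20 coding bases on either side stand in lower case. They were read from the GENCODE transcripts of each species, 5′ to 3′ on the strand of the gene, and the positions are those of the capitals.
In RUNX2 the run was 128 bases long and crossed from exon 6 to exon 7 of 9 (GRCh38 chr6:45491988-45512246, plus strand; mouse GRCm38 chr17:44639826-44658645, minus strand).
RUNX2: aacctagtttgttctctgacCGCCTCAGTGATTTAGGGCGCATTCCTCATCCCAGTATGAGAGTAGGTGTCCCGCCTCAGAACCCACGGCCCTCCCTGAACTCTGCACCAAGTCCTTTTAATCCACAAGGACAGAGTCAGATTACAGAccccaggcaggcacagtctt
Runx2: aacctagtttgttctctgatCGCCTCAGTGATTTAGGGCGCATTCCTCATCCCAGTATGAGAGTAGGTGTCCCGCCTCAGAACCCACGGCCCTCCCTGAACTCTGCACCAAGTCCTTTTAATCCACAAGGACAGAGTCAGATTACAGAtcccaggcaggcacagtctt
In DLX5 it was 104 bases long and crossed from exon 2 to exon 3 of 3 (GRCh38 chr7:97020971-97022193, minus strand; mouse GRCm38 chr6:6878394-6879534, minus strand).
DLX5: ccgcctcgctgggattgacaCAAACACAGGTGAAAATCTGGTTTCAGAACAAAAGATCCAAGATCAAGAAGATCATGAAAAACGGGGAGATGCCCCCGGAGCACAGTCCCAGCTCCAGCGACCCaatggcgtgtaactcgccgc
Dlx5: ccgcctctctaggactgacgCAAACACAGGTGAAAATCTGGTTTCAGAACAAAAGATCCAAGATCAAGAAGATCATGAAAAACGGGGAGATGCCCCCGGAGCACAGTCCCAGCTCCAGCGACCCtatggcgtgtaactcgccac
In SPARC it was 56 bases long within exon 6 of 10 (GRCh38 chr5:151669675-151669730, minus strand; mouse GRCm38 chr11:55401962-55402017, minus strand).
SPARC: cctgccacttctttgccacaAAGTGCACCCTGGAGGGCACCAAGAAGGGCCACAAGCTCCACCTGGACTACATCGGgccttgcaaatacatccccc
Sparc: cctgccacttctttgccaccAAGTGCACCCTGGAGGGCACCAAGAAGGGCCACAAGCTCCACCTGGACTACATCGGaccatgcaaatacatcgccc
In IBSP it was 53 bases long within exon 2 of 7 and began at the start codon (GRCh38 chr4:87802362-87802414, plus strand; mouse GRCm38 chr5:104302137-104302189, plus strand).
IBSP: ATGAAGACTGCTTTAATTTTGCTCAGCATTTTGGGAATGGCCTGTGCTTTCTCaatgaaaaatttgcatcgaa
Ibsp: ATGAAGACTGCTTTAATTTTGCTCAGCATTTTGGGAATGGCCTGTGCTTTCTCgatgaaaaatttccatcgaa
In BGLAP it was only 18 bases long within exon 3 of 4 (GRCh38 chr1:156242768-156242785, plus strand; mouse GRCm38 chr3:88384008-88384025, minus strand).
BGLAP: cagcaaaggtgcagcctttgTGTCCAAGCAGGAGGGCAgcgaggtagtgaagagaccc
Bglap: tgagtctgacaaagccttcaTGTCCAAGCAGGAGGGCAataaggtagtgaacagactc

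For RUNX2, DLX5, SPARC and IBSP the run was longer than a 50-base read, so a read lying inside it has the same letters in either species. The reads were sequenced in pairs, however, and the other read of a pair can lie outside the run. How often it did was not examined. In BGLAP, SPP1, PTHLH, ALPL, TNFSF11 and TNFRSF11B the longest coding run was between 18 and 33 bases, shorter than a read. Over whole transcripts, however, TNFRSF11B had 5 and TNFSF11 had 4 distinct 50-base sequences that also occur in mouse transcripts, and these lie outside the coding part of the main transcript, while BGLAP, SPP1, PTHLH and ALPL had none.

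The deposited means also allowed the counts of single libraries to be worked out for low genes with Xenome and XenofilteR, since such a mean is a sum of whole counts, each divided by the size factor of its library. The size factors are not in the table and were inferred from the spacing of the lowest means. With Xenome, all 20014 genes with a mean below 10 had exactly 1 solution. The 6 libraries had size factors of 5.93, 5.31 and 4.86 (here D1, D2 and D3, the deeper ones) and 0.427, 0.145 and 0.109 (S1, S2 and S3, the shallower ones). These factors scale the counts kept as human, so deeper and shallower do not refer to all the reads sequenced. No label ties any of them to a culture condition, and the columns of the authors' own comparisons were not used. They are therefore given as 6 libraries without a group, and no comparison of conditions was drawn from them. The labels do not say whether the shallower libraries are those of the co-culture, in which human cells were the minority, so a difference between S and D libraries and a difference between conditions cannot be told apart. A count of 1 weighs 0.0281 in the mean when it falls in D1 and 1.53 when it falls in S3. A floor of 3 counts corresponds to 0.506 normalised counts in D1 and 27.6 in S3, so a gene absent from S3 could still have had such a level there. The libraries of the XenofilteR solution were matched to those of Xenome by the order of their size factors. These limits cover counting error only.

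RUNX2, the factor that commits cells to the osteoblast lineage, lies at GRCh38 chr6:45328157-45664349. Xenome gave a mean of 411, XenofilteR 399.7 and Kallisto 385. The 3 pipelines were thus within a factor of 1.07 of each other, with Xenome the highest. Of the protein-coding genes compared further below, 2.19% had a lower ratio of XenofilteR to Xenome, and 8.02% a lower ratio of Kallisto to Xenome. RUNX2 is also among the genes with the most sequence shared with mouse. With Xenome, 47.7% of protein-coding genes had a lower mean, and per kb of exon 44.2% did, which puts RUNX2 near the middle of all protein-coding genes. Its mean was too high for counts per library to be worked out.

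DLX5, a homeobox factor that acts early in the osteoblast lineage (chr7:97020396-97024950), was highest with Xenome. Its mean there was 22.3, against 10.4 for XenofilteR and 11.3 for Kallisto. Xenome counted 12, 20 and 28 in D1, D2 and D3 and 4, 11 and 4 in S1, S2 and S3. XenofilteR counted the same 12, 20 and 28 in D1, D2 and D3, but 1, 3 and 3 in S1, S2 and S3. So the pipelines differed by 12 counts in all, and all of these lay in the shallower libraries. On the normalised scale, Xenome gave 2.02, 3.76 and 5.76 in D1, D2 and D3 and 9.38, 76.0 and 36.7 in S1, S2 and S3, and the value of S2 rested on 11 counts (95% exact Poisson interval 5.49 to 19.7 counts). Of the Xenome mean, 91.4% came from the 19 counts of S1, S2 and S3. DLX5 had the largest share of sequence in common with mouse among the 10 genes, and all 235 of its shared 31-base sequences occur in mouse Dlx5. Whether reads of mouse origin take part in the difference was not tested.

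SPARC, also called osteonectin, is a collagen-binding glycoprotein of bone matrix (chr5:151661096-151686975). Its mean was 72.0 with Xenome and 142 with both XenofilteR and Kallisto. Xenome counted 82, 97 and 104 in D1, D2 and D3 and 28, 20 and 19 in S1, S2 and S3. XenofilteR counted 80, 96 and 105 in D1, D2 and D3 and 65, 51 and 32 in S1, S2 and S3, the only solution found within 60 counts of the Xenome values in the deeper libraries. In D1, D2 and D3 the pipelines therefore differed by at most 2 counts, while XenofilteR counted 37, 31 and 13 more in S1, S2 and S3. The normalised values with Xenome were 13.8, 18.3 and 21.4 in D1, D2 and D3 and 65.6, 138 and 174.5 in S1, S2 and S3. With XenofilteR they were 13.5, 18.1 and 21.6 in D1, D2 and D3 and 152.5, 353 and 294 in S1, S2 and S3. The values of S1, S2 and S3 lay above those of D1, D2 and D3 with either pipeline and made up 87.6% of the Xenome mean and 93.8% of the XenofilteR mean. Of the 71 shared 31-base sequences of SPARC, all occur in mouse Sparc, and 69 lie in the coding part of its main transcript. Whether reads of mouse origin take part in the difference was not tested.

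**Figure D3:**
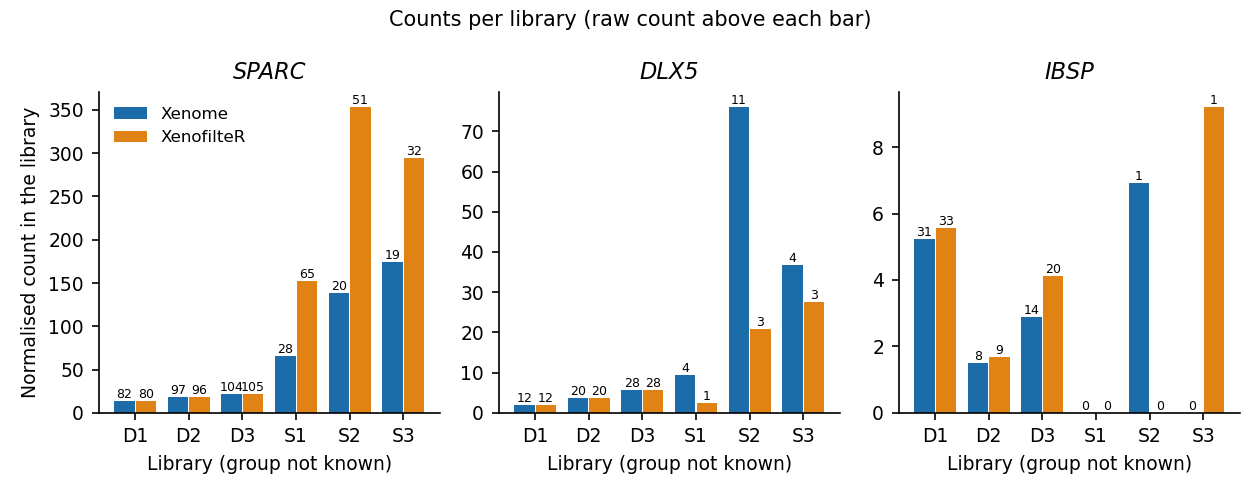
Normalised count (vertical axis) of SPARC, DLX5 and IBSP in each of the 6 libraries, D1 to D3 deeper and S1 to S3 shallower, with Xenome (blue) and XenofilteR (orange); the raw count stands above each bar, and there are no replicates per bar. Bars of D1 to D3 are nearly equal between pipelines for SPARC and DLX5, whereas in S1 to S3 XenofilteR lies above Xenome for SPARC and below it for DLX5.

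IBSP, bone sialoprotein, a matrix protein that nucleates mineral (chr4:87799554-87812435), was low throughout, with means of 2.75, 3.43 and 3.09 with Xenome, XenofilteR and Kallisto. Xenome counted 31, 8 and 14 in D1, D2 and D3, and 0, 1 and 0 in S1, S2 and S3. XenofilteR counted 33, 9 and 20 in D1, D2 and D3, and 0, 0 and 1 in S1, S2 and S3. In counts, the pipelines differed mainly in the deeper libraries, by 9 counts there. In the Xenome mean, however, 1 count adds only 0.0281 in D1 and 0.0343 in D3. The means also moved with the count that lay in S2 with Xenome and in S3 with XenofilteR, since 1 count adds 1.15 to the mean in S2 and 1.53 in S3. That single count in S2 or S3 gave a normalised value of 6.91 or 9.20, above every deeper library, so no level can be read from it.

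BGLAP, osteocalcin, a protein made by mature osteoblasts (chr1:156242184-156243317), had means of 3.78 with Xenome, 3.75 with XenofilteR and 1.12 with Kallisto. Xenome counted 39, 28 and 19 in D1, D2 and D3, and 0, 1 and 0 in S1, S2 and S3, and XenofilteR differed from this by 1 count in D2. Of the 964 exon bases of BGLAP, 394 (40.9%) also belong to PMF1-BGLAP, a readthrough gene on the same strand that joins PMF1 with BGLAP. PMF1-BGLAP had means of 18.4, 18.5 and 129 with Xenome, XenofilteR and Kallisto. So Kallisto gave less than the other pipelines for BGLAP and more for PMF1-BGLAP, and the gap in counts was far larger for PMF1-BGLAP. The values of both genes are uncertain where reads fall on their shared exons. BGLAP had no 31-base sequence in common with mouse.

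SPP1, osteopontin, an adhesive protein of bone matrix and of many tumours (chr4:87975650-87983426 in the table), had 10 counts in all. They were 7, 1 and 1 in D1, D2 and D3 and 1, 0 and 0 in S1, S2 and S3 with either pipeline. Its means were 0.653, 0.653 and 0.678 with Xenome, XenofilteR and Kallisto, and it shared no 31-base sequence with mouse.

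ALPL, the tissue-nonspecific alkaline phosphatase that frees phosphate for mineral growth (chr1:21509397-21578410), had 3 counts in all, and they fell in D3 with either pipeline. Its mean was 0.103 with each of the 3 pipelines. A stretch of 25 of its 2980 exon bases belongs to another protein-coding gene on the same strand (ENSG00000289715).

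TNFRSF11B, the decoy receptor that binds RANKL (chr8:118923557-118951885), showed the widest gap between pipelines of the 10 genes. Xenome and XenofilteR each counted 2, 1 and 0 in D1, D2 and D3 and 0 in S1, S2 and S3, with means of 0.0876 and 0.0875. Kallisto gave a mean of 12.1, which with 1 added to each mean is 12.1 times the Xenome value. Its 24 shared 31-base sequences all occur in mouse Tnfrsf11b and none lies in the coding part of its main transcript. The Kallisto mean could not be resolved into libraries. Whether reads of mouse origin take part in it was not tested.

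TNFSF11, which encodes RANKL (chr13:42562736-42608013), had 2 counts in all, both in D1, with Xenome and with XenofilteR. Xenome gave a mean of 0.05625, XenofilteR 0.0562 and Kallisto 0.132. With counts of 2 for RANKL and 3 for osteoprotegerin, no ratio of the pair could be formed from the counted reads.

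PTHLH, which encodes parathyroid hormone-related protein (chr12:27958084-27972733), had 38 counts, of which 25, 8 and 5 fell in D1, D2 and D3 and none in S1, S2 and S3, with either pipeline. Its means were 1.125, 1.12 and 1.10 with Xenome, XenofilteR and Kallisto. The 0 counts in S1, S2 and S3 still allowed 7.03, 20.7 and 27.6 normalised counts there at the floor of 3 counts, above the 4.22, 1.51 and 1.03 measured in D1, D2 and D3. A lower level of PTHLH was therefore not detectable in those libraries at their size factors.

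Of the 10 genes, 7 had a mean below 10 with Xenome and XenofilteR, as did 25.1% of the protein-coding genes listed by either pipeline. Of these 7, BGLAP and IBSP had counts that differed between the pipelines in some library, and the other 5 had equal counts in all 6 libraries. Among the 4439 protein-coding genes solved with both pipelines, 30.6% had counts that differed.

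With a minimum of 10 for the average of both means, 14497 protein-coding genes were compared between Kallisto and Xenome, each mean plus 1, and 10.6% were at least 4 times higher with Kallisto and 0.345% at least 4 times lower. Of the 10 genes only RUNX2, SPARC and DLX5 passed this minimum, and none of the 3 was past 4 times in either direction. On the log2 scale the ratio of Kallisto to Xenome was -0.09 for RUNX2, 0.97 for SPARC and -0.92 for DLX5, beside a median of 0.04 over all genes compared. Only 0.876% of genes had a lower ratio than DLX5 and 8.02% a lower ratio than RUNX2, whereas 16% had a higher ratio than SPARC. TNFRSF11B missed the minimum with an average of 6.11.

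**Figure D4:**
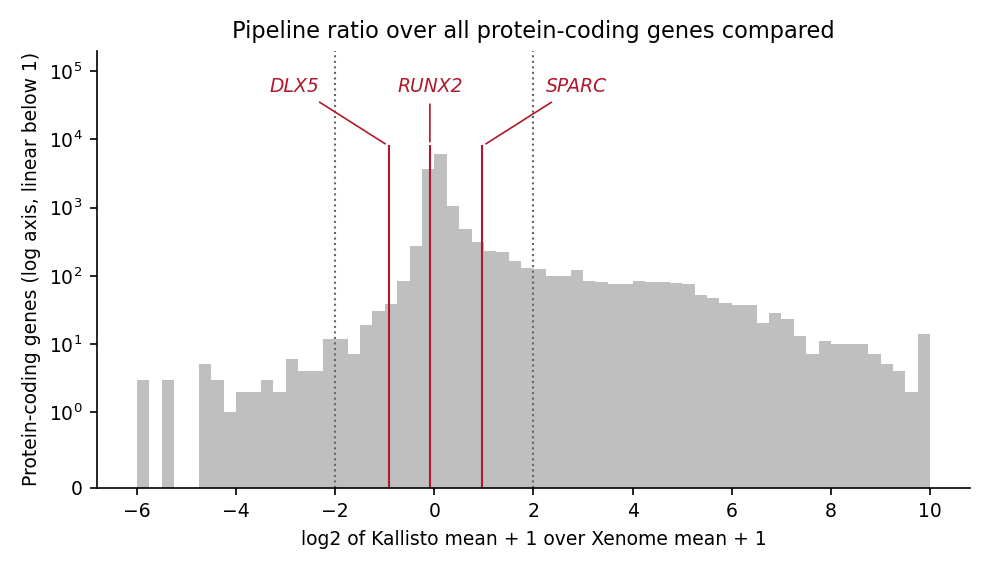
Histogram of the log2 ratio of Kallisto to Xenome means, each plus 1, over 14497 protein-coding genes (horizontal axis, values beyond the ends put in the end bars; vertical log axis, linear below 1), with dotted lines at 4 times in either direction. RUNX2 (-0.09) lies in the central peak, DLX5 (-0.92) in the thin left tail and SPARC (0.97) in the broad right shoulder.

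XenofilteR and Xenome agreed far more closely, and here SPARC and DLX5 stood out. Of 13353 protein-coding genes, 0.24% were at least 1.5 times higher with XenofilteR and 0.187% at least 1.5 times lower, a threshold set after seeing the data. SPARC was at 1.96 times its Xenome value, and only 0.142% of genes had a higher ratio. DLX5 was at 0.489 of its Xenome value, and only 0.112% of genes had a lower ratio. Without S2, which held 8 of the 12 counts by which the pipelines differed, DLX5 was at 0.742 and no longer past 1.5 times, while leaving out any other library gave 0.389 to 0.502. SPARC stayed past 1.5 times without any of the 6 libraries in turn, at 1.69 to 2.15. These values without a library were added after seeing the data. RUNX2 was at 0.972, and 2.19% of genes had a lower ratio. With XenofilteR in place of Xenome, the log2 ratio of Kallisto was -0.00 for SPARC and 0.11 for DLX5, so for these genes Kallisto lay with XenofilteR. The values say which pipelines differ, not which is right.

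Related genes were taken from 5 lists ordered by role, 53 genes in all. None of the 7 osteogenic transcription factors that passed the minimum (of 11 in the list) was past 4 times between Kallisto and Xenome. Of all genes compared, 10.6% were at least 4 times higher with Kallisto and 0.345% at least 4 times lower. The median log2 ratio of these 7 factors was 0.14. MSX1, a homeobox factor of craniofacial bone, had means of 250 and 404 with Xenome and Kallisto. RUNX1, a relative of RUNX2 best known in blood formation, had 263.5 and 293, and MSX2 had 278 and 277. The means of these 3 factors were at least 247.9 in every pipeline.

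In the list of bone matrix and adhesion genes, 7 of 13 passed the minimum, and 2 were at least 4 times higher with Kallisto, beside 10.6% of all genes compared. These were DCN, decorin, a collagen-binding proteoglycan, with means of 0.966, 0.966 and 64.6 with Xenome, XenofilteR and Kallisto, and COL1A2, a chain of type I collagen, with 45.0, 264 and 222. DCN passed the minimum only through its Kallisto mean, so it had to differ. BGN, biglycan, a proteoglycan related to decorin, stood just below that fold with 6.41, 9.44 and 27.8. CDH11, the osteoblast cadherin, had the lowest ratio of Kallisto to Xenome in the list (log2 -1.36), with means of 49.6, 22 and 18.7. As for DLX5, its mean was highest with Xenome. The median log2 ratio of the list was 0.02.

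None of the 7 mineralisation genes was past 4 times, beside 10.6% of all genes compared that were higher with Kallisto and 0.345% lower. The median log2 ratio of these 7 genes was 0.04. PHOSPHO1, a phosphatase of matrix vesicles, had means of 14.2 and 39.8 with Xenome and Kallisto. PHEX, a peptidase of phosphate balance, had 127 and 158, ENPP1, which makes the mineral inhibitor pyrophosphate, had 1031 and 1087, and SLC20A2, a phosphate transporter, had 1420 and 1187.

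In the list of remodelling signals and receptors, 10 of 15 passed the minimum and 3 were at least 4 times higher with Kallisto, beside 10.6% of all genes compared. NOG, noggin, an extracellular BMP antagonist, had means of 0.768, 0.377 and 46.6 with Xenome, XenofilteR and Kallisto. BMP4, a bone morphogenetic protein, had 4.14, 4.52 and 54.2, and TGFB1, a growth factor stored in bone matrix, had 1.98, 1.59 and 18.1. VDR, the vitamin D receptor, was the lowest of the list by ratio, with 1701 for XenofilteR and 1670 for Kallisto. NOG, BMP4 and TGFB1 passed the minimum only through their Kallisto mean, so they had to differ.

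Of the enzymes of bone resorption (6 proteases and the phosphatase ACP5), 4 of 7 passed the minimum. Of these, 1 was at least 4 times higher with Kallisto, beside 10.6% of all genes compared. MMP14, a membrane-bound collagenase, had means of 15.5, 75.6 and 2567 with Xenome, XenofilteR and Kallisto, so with 1 added to each mean Kallisto gave 156 times the Xenome value. MMP13, CTSK (cathepsin K) and ACP5 (the tartrate-resistant phosphatase of osteoclasts) had means of 76.2, 182 and 22.5 with Xenome and 79.1, 175 and 17.4 with Kallisto. The median log2 ratio of these 4 enzymes was -0.00.

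**Figure D5:**
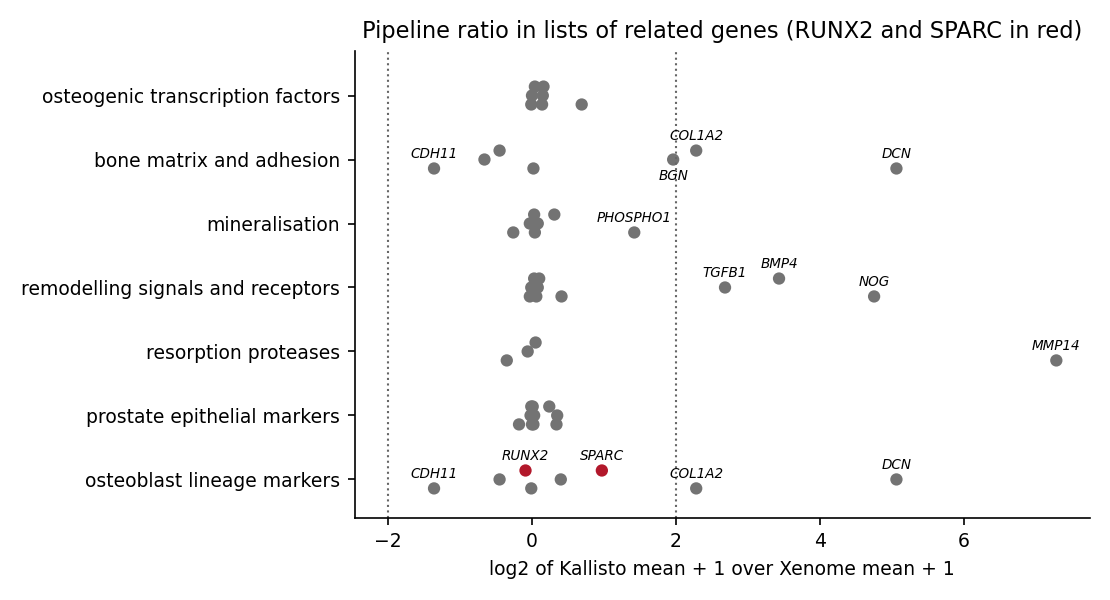
Log2 ratio of Kallisto to Xenome means, each plus 1 (horizontal axis), of every gene that passed the minimum in 5 lists by role and in 2 lists of cell type markers (rows); dotted lines mark 4 times in either direction. DCN, COL1A2, NOG, BMP4, TGFB1 and MMP14 lie to the right of the upper line, and all prostate epithelial markers lie near 0.

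The labelled cell type was checked with markers. The 11 prostate epithelial markers in the table had Xenome means between 4603 and 51038, and their log2 ratio of Kallisto to Xenome lay between -0.18 (KLK3, prostate-specific antigen) and 0.35 (KRT18, a luminal keratin). FOLH1 (PSMA) and KRT8 were the next highest by ratio, at 0.34 and 0.24. The 15 osteoblast lineage markers, among them RUNX2, SPARC, BGLAP, IBSP, ALPL and SPP1, had summed means of 4332 with Xenome, 5776 with XenofilteR and 3694 with Kallisto. COL1A1, the other chain of type I collagen, carried most of each sum, with means of 3384, 4557 and 2471. Of the 8 that passed the minimum, 2 were at least 4 times higher with Kallisto (DCN and COL1A2), beside 10.6% of all genes compared. DCN passed only through its Kallisto mean, so it had to differ. The log2 ratios of the 8 ranged from -1.36 to 5.06. ALPL and LUM did not pass the minimum and had 3 counts or fewer with Xenome. The part of mouse osteoblast RNA in the values of the 10 genes was not tested.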

How the data were processed

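RNA libraries were made with a stranded mRNA kit and sequenced in 50-base pairs to at least 40 M reads per library. The authors kept human reads with Xenome before HISAT2 alignment to GRCh38, or aligned to GRCh38 and GRCm38 and discarded mouse reads with XenofilteR, and counted genes with featureCounts; with Kallisto they used joined human and mouse GENCODE transcripts. Versions and the strand setting are not given in the sources used here. The deposited value used here is the mean of DESeq2-normalised counts over both groups, the authors' mean. The 15 columns of the authors' own comparisons (log2 fold change, its error, statistic, p-value and adjusted p-value per pipeline) were not used. Of 41734 rows, 21 repeats were dropped.

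The table holds no counts per library, so the planned edgeR test of co-culture against C4-2B alone was not run. Samples were grouped by their titles. Ratios between pipelines used means plus 1 and protein-coding genes with an average of both means of at least 10. Whole counts per library were solved from 15-digit means by exhaustive search with numpy 2.4.6 and numba 0.67.0. On means simulated with the inferred size factors and solved with the same factors, 2000 of 2000 were recovered for either pipeline. The size factors themselves were not tested in this way. The simulated counts were drawn from genes with a mean below 10, and the means of DLX5 and SPARC lay above that. 31-base sequences came from GENCODE 44 (human) and M21 (mouse), matched on both strands. Named list genes were, per list, the 3 largest and the smallest Kallisto to Xenome ratio, plus genes overlapping one of the 10 on the same strand; 1 gene so chosen is not reported here. The 10 genes and the lists were chosen with earlier results of these data known. Alternatives were another pipeline, pseudocount, minimum, fold, scaling, gene background, length and sequence length.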

Additional observations from a re-analysis of the deposited data

How the results depend on the processing

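The number of the 10 genes past 4 times between Kallisto and Xenome was 0 and stayed so with XenofilteR in place of Xenome, pseudocounts of 0.1 and 5, an average of at least 50, a fold of 2 and ratios divided by their median. Without the minimum it was 1 (TNFRSF11B). Over all protein-coding genes, an average of at least 50 left 784 genes higher and 26 lower with Kallisto, in place of 1535 and 50, since fewer genes were compared, and a fold of 2 gave 118 lower. Counts of the 9 solved genes in the 3 shallower libraries summed to 89 with Xenome and 158 with XenofilteR, with 81 more in SPARC and 12 fewer in DLX5. The other alternatives for these counts kept them within 1.5 times. Per kb of the longest transcript in place of all exons, the Xenome mean was 0.595 for PTHLH (0.331) and 0.161 for SPP1 (0.0901), and the other 8 genes moved by less than 1.5 times. Among all genes rather than protein-coding ones, 75% had a lower mean than RUNX2 and 66.1% a lower mean than SPARC.

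No paired analysis was possible because the table holds pooled means and no counts per sample. For the same reason the alternatives of the test between conditions (DESeq2, no filter on low counts, leaving out each replicate) were not run. Pooled means give 3 libraries with small size factors a heavy weight, and there 1 count moves a mean by 0.391 to 1.53. The means of 7 of the 10 genes with Xenome lie below 10.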

Other observations

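Among related genes, some had many of their counts in S1, S2 and S3 although these are the shallower libraries. All genes named in this paragraph were chosen after their values were seen. POSTN, periostin, a matrix protein of periosteum and fibroblasts, had counts of 0, 0 and 0 in D1, D2 and D3 and 1, 2 and 1 in S1, S2 and S3 with Xenome, and 1, 7 and 0 in S1, S2 and S3 with XenofilteR. CDH11 had 0, 0 and 2 in D1, D2 and D3 and 9, 4 and 9 in S1, S2 and S3 with XenofilteR. MMP2, a gelatinase, had 1, 1 and 4 in D1, D2 and D3, and 5, 1 and 2 in S1, S2 and S3 with Xenome or 9, 8 and 4 with XenofilteR. SP7, osterix, a factor that acts after RUNX2, had 15, 7 and 10 in D1, D2 and D3 and none in S1, S2 and S3 with Xenome, and with XenofilteR 1 count in S1 beside the same counts in D1, D2 and D3. DMP1 and MEPE, matrix proteins of osteocytes, had 3, 1 and 5 and 8, 12 and 9 in D1, D2 and D3 and none in S1, S2 and S3 with either pipeline. With Xenome, SP7, DMP1 and MEPE had at most 2.53 normalised counts in D1, D2 and D3. A floor of 3 counts was 7.03, 20.7 and 27.6 in S1, S2 and S3, so no lower level can be read from the missing counts. Other genes of the lists, such as PHOSPHO1, EDN1 and ACP5, had counts in every library.

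The 6 libraries fell into separate clusters by size factor, with 5.93, 5.31 and 4.86 in one and 0.427, 0.145 and 0.109 in the other. The values of SPARC also lay apart. With Xenome, D1, D2 and D3 were at 13.8 to 21.4 and S1, S2 and S3 at 65.6 to 174.5. With XenofilteR they were at 13.5 to 21.6 and at 152.5 to 353. The values of DLX5 did not form such separate clusters. For DLX5 with Xenome, S1 (9.38, from 4 counts) lay nearer to D3 (5.76) than to S3 (36.7), and with XenofilteR S1 had 2.35, below the 3.76 and 5.75 of D2 and D3. Which culture each library came from was not inferred.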
